A study of Mus musculus with 7 samples.

Results

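The genes described here are the 59 guidance ligands and receptors that the single-cell libraries measured, out of 32285 genes in all. They were chosen by symbol: every gene named as a semaphorin of classes 3 to 7, a plexin, Nrp1 or Nrp2, a Slit, a Robo, an ephrin or an Eph receptor with a number of 1 digit. They comprised 20 semaphorins, 3 Slits, 5 ephrin-As and 3 ephrin-Bs on the ligand side, and 9 plexins, 2 neuropilins, 4 Robos, 8 EphAs and 5 EphBs on the receptor side. The rule itself uses no measured value, but it was set with earlier results of these data known.

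These families steer migrating cells and growing processes. Semaphorins, secreted or membrane-bound, act through plexins, and most of the secreted class also use neuropilins as co-receptors. Slits are secreted repellents read by Robo receptors, and neuroblasts leaving the ventricular-subventricular zone (V-SVZ) are a classical target of Slit. Ephrin-As sit on the membrane through a lipid anchor and ephrin-Bs cross it, and both pair with Eph receptor tyrosine kinases on neighbouring cells, where each side can signal. In the V-SVZ, neural stem cells (NSCs) produce transit amplifying progenitors (TAPs), which produce neuroblasts, and ependymal cells line the ventricle.

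V-SVZ cells of mice aged 31 to 33 days were sequenced in 7 droplet libraries, each made from the pooled tissue of 2 to 3 mice of both sexes. The 3 control libraries came from mice labelled Prdmflox/flox, the 3 cKO libraries from hGFAP-Cre+/-; Prdm16flox/flox mice, and the DKO library from hGFAP-Cre+/-; Prdm16flox/flox; Vcam1flox/flox mice. All groups thus carried floxed Prdm16. Prdm16 is a transcriptional regulator of radial glia, and Vcam1 an adhesion protein of NSCs. The human GFAP promoter drives Cre in radial glia, so that their progeny carry the deletion too. Endothelial, mural and microglial cells arise outside that lineage. The controls had no Cre, so an effect of Cre itself and the loss of Prdm16 cannot be told apart. With 1 DKO library, its values are set beside the others without a test.

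The deposited values are counts of unique molecular identifiers (UMIs), 1 for every mRNA molecule captured at its 3′ end, and are not divided by gene length. Cells with 500 to 7000 detected genes and at most 10% mitochondrial counts were kept, 43346 in all, with 1868 to 9502 per library. Fewer barcodes passed in cKO libraries 2 and 3 (49.8% and 47.2%) than in the other libraries (70.2% to 74.7%), and library pairs shared 2 to 70 barcodes. Cells were clustered without the 59 genes, and clusters were named from marker genes. The 11 types compared were NSC-like (5570 cells), TAP-like (2979), neuroblast-like (7939), neuron-like (2566), astrocyte-like (2184), ependymal-like (2785), oligodendrocyte precursor (OPC)-like (1442), oligodendrocyte-like (5374), endothelial-like (2752), mural-like (1465) and microglia-like (1097). The NSC-like cluster was the least sharply defined. Only 38.2% of its cells had at least 3 detected NSC markers and more of them than of any other type, against 93.4% of the astrocyte-like cells for their own markers. The OPC-like cluster also held markers of committed oligodendrocytes (Gpr17, Neu4, Bmp4). Counts were summed per library and type and are given as CPM, the count normalised to library size, with scaling by the trimmed mean of M values (TMM) within each type.

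In NSC-like cells, Prdm16 itself stood at 67.9, 60.6 and 70.0 CPM for control libraries 1 to 3, at 54.7, 51.6 and 49.2 CPM for cKO libraries 1 to 3 and at 57.1 CPM for the DKO library. The log2 fold change was −0.35 ± 0.14 (SE), with an adjusted p of 0.291. Unless another test is named, every adjusted p is from edgeR's quasi-likelihood test, adjusted by Benjamini-Hochberg over all genes tested in a type. A 3′ count can lie outside the deleted exons and so does not check the deletion.

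Guidance genes differed in level between cell types, some sharply and others within the spread of the libraries. Of the 59 members, 54 reached a mean of at least 20 CPM over the 7 libraries in at least 1 type, and the 5 below were Efna4, Epha1, Robo3, Sema3b and Sema3f. The type with the highest level was the same in all 7 libraries for 40 of the 54, and for 30 it did not overlap with the second type. The level of 20 CPM was reached in 1 type only by 16 members. Neuron-like cells held the highest level of 14 members, neuroblast-like and endothelial-like cells of 9 each, OPC-like cells of 7, astrocyte-like cells of 4, mural-like cells of 3, TAP-like, oligodendrocyte-like and microglia-like cells of 2 each, and NSC-like and ependymal-like cells of 1 each.

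**Figure D1:**
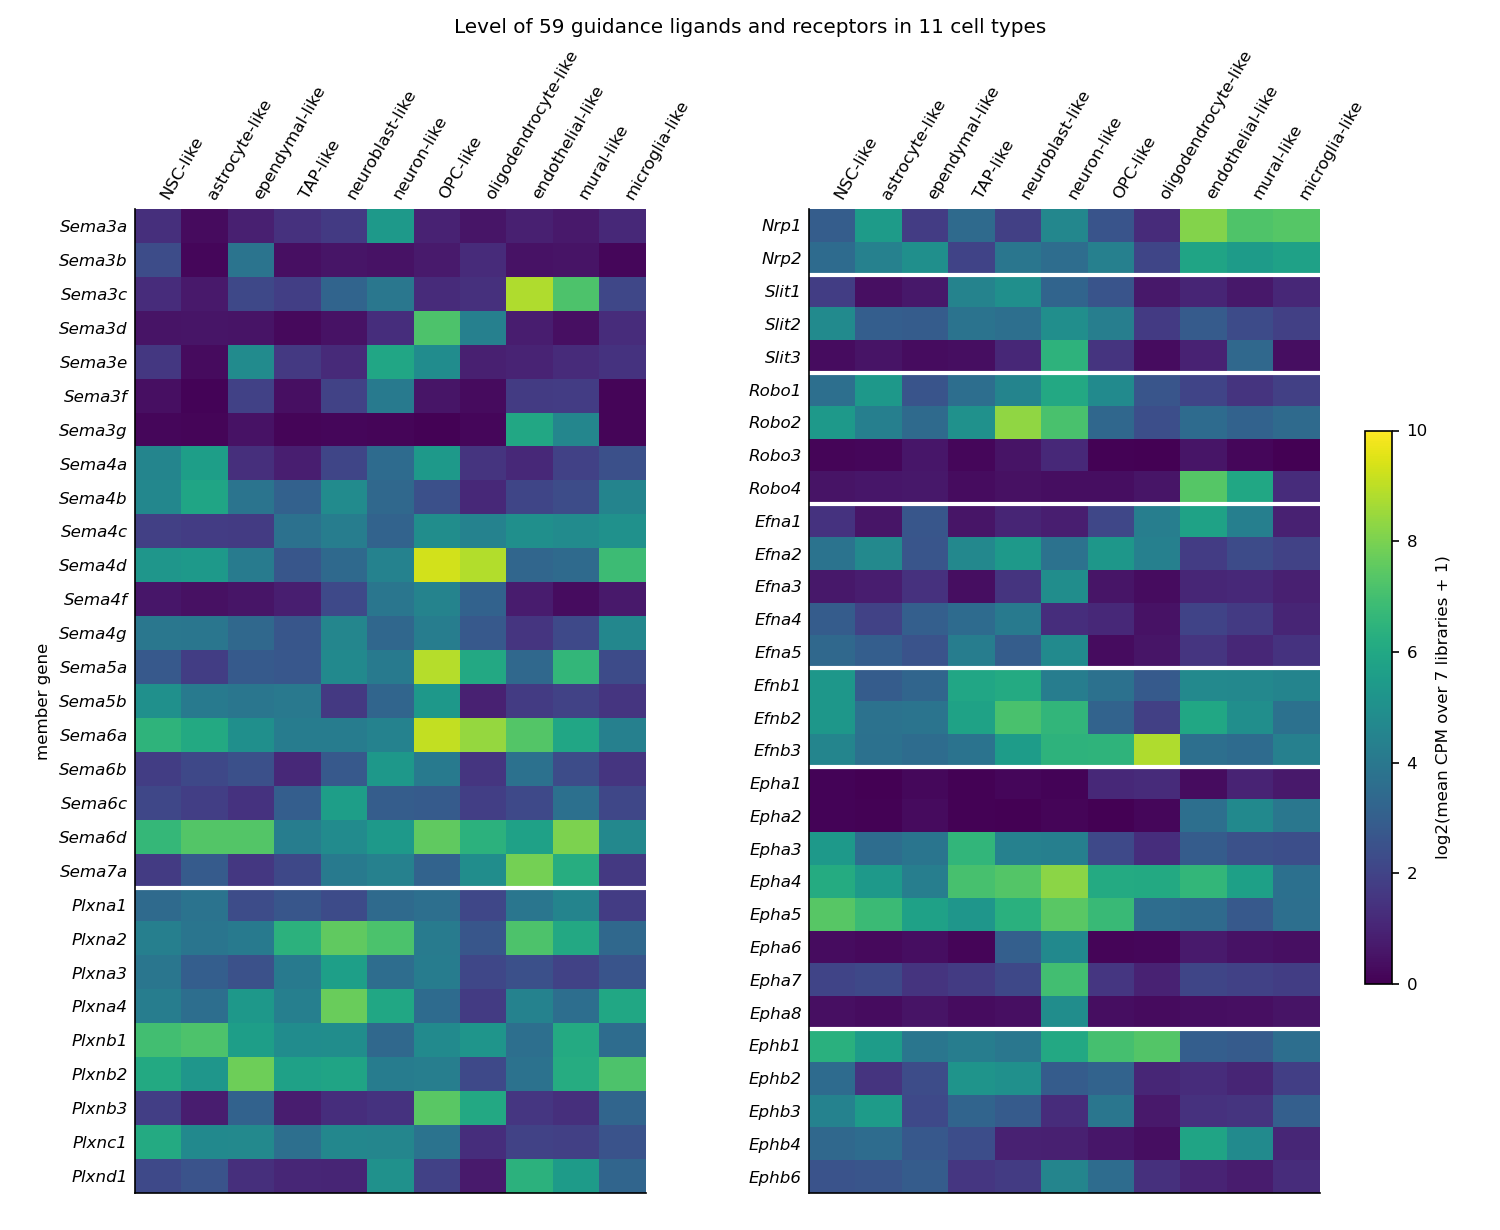
Heatmap of the 59 guidance genes (rows, by family) in 11 cell types (columns), coloured by log2 of the mean CPM over 7 libraries plus 1. Sema4d, Sema5a and Sema6a stand out in OPC-like cells, Sema3c, Sema7a and Robo4 in endothelial-like cells, Robo2 and Plxna4 in neuroblast-like cells and Epha7 in neuron-like cells.

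Among ligands, the membrane-bound Sema4d, Sema4f, Sema5a, Sema5b and Sema6a and the secreted Sema3d were highest in OPC-like cells. Sema4d, a ligand of Plxnb1, reached 629 ± 98.7 CPM (SD, n = 7) in OPC-like cells and 464 ± 31.5 CPM in oligodendrocyte-like cells, with 474 to 747 CPM over the libraries of the former. The third type, microglia-like cells, had a mean of 116 CPM, and TAP-like cells had 5.42 CPM. Sema6a stood at 534 ± 97.9 CPM in OPC-like and 338 ± 50.8 CPM in oligodendrocyte-like cells, without overlap. Sema5a was more uneven between these types, with 469 ± 72.5 CPM in OPC-like cells, 97.5 CPM in mural-like cells and 64.8 CPM in oligodendrocyte-like cells. The secreted Sema3d was at 147 ± 26.2 CPM in OPC-like cells and at 19.7 CPM in oligodendrocyte-like cells, and no other type had a mean above 1.49 CPM. Sema5b and Sema4f had 39.8 and 21 CPM in OPC-like cells. In the OPC-like cells of control libraries the 5 OPC markers summed to 2790 to 2930 CPM. The 4 markers of committed oligodendrocytes summed there to 2260 to 3010 CPM and the 6 oligodendrocyte markers to 5190 to 6720 CPM. The OPC-like levels, of receptors too, thus need not be those of precursors alone, and the part of later stages in them was not tested.

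The vessel-associated types carried a different group of semaphorins. Sema3c had 452 ± 78.1 CPM in endothelial-like cells, with 358 to 570 CPM over libraries, and 147 ± 43.9 CPM in mural-like cells, while the third type, neuron-like cells, had 14.6 CPM. Sema7a, a lipid-anchored semaphorin, followed the same order, with 240 ± 74.4 CPM in endothelial-like and 74.6 CPM in mural-like cells. Sema3g reached 63.4 ± 18.1 CPM in endothelial-like cells and 23.4 CPM in mural-like cells, with ranges that overlapped, and at most 0.392 CPM elsewhere. Mural-like cells had the highest Sema6d, at 258 ± 42.7 CPM, but Sema6d was broad, with at least 20 CPM in 10 of the 11 types. Endothelial and mural cells lie side by side in tissue, and their clusters shared the 2 highest places for Sema3c, Sema3g, Sema7a, Efna1, Robo4, Plxnd1 and Ephb4. The mural-like cells pooled 2 clusters, of 1127 and 338 cells, with medians of 4289 and 13851 UMIs. The smaller also carried all 5 endothelial markers, so these mural-like levels need not be those of mural cells alone. The 5 endothelial markers summed to 4680 to 5000 CPM in the mural-like cells of control libraries and to 5330 to 6880 CPM in those of cKO libraries, against 14100 to 17000 CPM in endothelial-like cells, and their part in the mural-like levels was not tested.

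Neuron-like cells were highest for Sema3a (42.1 ± 21.3 CPM, from 15.6 to 70.8 CPM over libraries), Sema3e (59.9 ± 7.99 CPM) and Sema6b (39.1 ± 7.66 CPM). Neuroblast-like cells were highest for Sema6c (47.5 ± 7.45 CPM). Sema4a and Sema4b were highest in astrocyte-like cells, at 47.6 ± 10.5 and 57.3 ± 11.8 CPM, and Sema4a overlapped there with OPC-like cells at 40.9 CPM. For Sema4c and Sema4g, microglia-like cells had the highest mean, 32.6 and 23.6 CPM, but the second type was within the spread (30.9 CPM in endothelial-like and 23.2 CPM in neuroblast-like cells).

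The 3 Slits differed from each other. Slit3 was a neuron-like gene at 87.6 ± 11.1 CPM, against 9.27 CPM in the second type, mural-like cells. Slit1 was found in the later stages of the neurogenic lineage, with 30.3 ± 5.67 CPM in neuroblast-like and 21.5 ± 5.82 CPM in TAP-like cells, which overlapped. It had 8.29 CPM in neuron-like and 2.53 CPM in NSC-like cells. Slit2 had 29.4 ± 6.1 CPM in neuron-like cells and 26.4 ± 16.2 CPM in NSC-like cells, and these overlapped. The NSC-like mean pools unlike libraries, from 4.56 to 43.2 CPM, with the lowest values in cKO libraries 2 and 3.

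Of the ephrins, Efnb3 was the most uneven among the B class, with 449 ± 50.2 CPM in oligodendrocyte-like cells against 90.8 ± 21.6 CPM in OPC-like cells and 86.4 CPM in neuron-like cells. Efnb2, which marks arterial endothelium and also pairs with EphB receptors on neural cells, was highest in neuroblast-like cells at 139 ± 24.4 CPM, and neuron-like cells followed at 94.1 CPM with overlapping ranges. Endothelial-like cells had 61.6 CPM of Efnb2. Efnb1 stood at 67.4 ± 16.9 CPM in neuroblast-like cells and at 59.8 ± 18.8 CPM in TAP-like cells, which overlapped. In the A class, Efna1 was endothelial-like (53.9 ± 11.7 CPM), Efna3 and Efna5 were neuron-like (28.9 and 26.3 CPM), and Efna2 did not separate neuroblast-like cells from OPC-like cells (40.3 and 38.3 CPM).

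On the receptor side, Plxna4, Plxna2 and Plxna3, receptors of class 3 and class 6 semaphorins, were highest in neuroblast-like cells. Plxna4 had 208 ± 33.2 CPM there against 61.8 ± 12.4 CPM in microglia-like cells, and Plxna3 had 49.4 ± 9.13 CPM against 17.4 CPM in OPC-like cells. Plxna2 had 189 ± 29.2 CPM and overlapped with endothelial-like cells at 148 ± 65.4 CPM. Plxnb1, a receptor of Sema4d, was highest in astrocyte-like (146 ± 24.8 CPM) and NSC-like cells (124 ± 12.6 CPM), in ranges that overlapped. Plxnb2 was an ependymal-like gene at 219 ± 25.9 CPM, above microglia-like cells at 148 ± 24.0 CPM in all 7 libraries. Plxnb3 had 172 ± 38.3 CPM in OPC-like and 64.8 CPM in oligodendrocyte-like cells, and at most 8.70 CPM elsewhere. Plxnd1, the receptor of Sema3e in vessels, had 84.1 ± 13.5 CPM in endothelial-like cells. Plxnc1, the receptor of Sema7a, was the 1 member highest in NSC-like cells, at 68.3 ± 14.3 CPM against 26.1 ± 3.08 CPM in astrocyte-like cells.

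The neuropilins were highest in the vessel and microglial clusters but not confined to them, with at least 20 CPM in 5 types for Nrp1 and 4 for Nrp2. Nrp1, which also binds VEGF, had 279 ± 35.6 CPM in endothelial-like, 164 CPM in microglia-like, 149 CPM in mural-like and 44.0 CPM in astrocyte-like cells. Nrp2 had 56.4 ± 14.0 CPM in endothelial-like, 51.6 ± 17 CPM in microglia-like and 43.4 CPM in mural-like cells, and the first pair overlapped. Among the Robos, Robo4 was endothelial-like at 162 ± 22.9 CPM, with 61.1 CPM in mural-like cells and at most 1.44 CPM in any other type. Robo2 was highest in neuroblast-like cells at 320 ± 77 CPM (208 to 436 CPM), with 138 ± 11 CPM in neuron-like and 40.8 CPM in NSC-like cells. Robo1 was highest in neuron-like cells at 64.2 ± 8.38 CPM, followed by astrocyte-like cells at 39.4 CPM.

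Of the Eph receptors, Epha4, Epha5, Epha6, Epha7, Epha8 and Ephb6 had their highest mean in neuron-like cells, and the others elsewhere. Epha7 had 123 ± 17.8 CPM in neuron-like cells and at most 3.5 CPM in any other type, and Epha8 had 29.3 ± 5.75 CPM against at most 0.457 CPM. Epha4 was broad, with at least 20 CPM in 9 types and a highest level of 304 ± 32.7 CPM in neuron-like cells. Epha5 did not differ between neuron-like (173 ± 44.9 CPM) and NSC-like cells (166 ± 43.1 CPM) beyond its spread. Epha3 peaked in TAP-like cells, at 95.5 ± 10.4 CPM (78.0 to 110 CPM), against 40.7 ± 13.1 CPM in NSC-like and 19.8 CPM in neuroblast-like cells. Ephb1 was highest in oligodendrocyte-like and OPC-like cells (160 and 132 CPM), Ephb2 in TAP-like and neuroblast-like cells (34.8 and 31.4 CPM), Ephb3 in astrocyte-like cells (44.4 CPM) and Ephb4, the partner of Efnb2 on venous endothelium, in endothelial-like cells (56.6 CPM).

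The differences between neighbouring stages were then tested within libraries, with the library as a block. These contrasts found most genes changed, so the members are read against that background, and the members named are the called ones of at least 20 CPM, as a mean over the pair of types, with the largest changes. In TAP-like against NSC-like cells, 16 members were called higher and 23 lower of 46 tested, where 83.1% of all genes were called, 40.5% higher and 42.7% lower. Plxna2 rose by 2.26 ± 0.10 (SE, log2), Ephb2 by 1.88 ± 0.08 and Epha3 by 1.39 ± 0.14. Sema4d (−2.62 ± 0.13), Plxnc1 (−2.39 ± 0.09) and Sema6a (−2.30 ± 0.10) fell. All 6 moved in the same direction in 7 of 7 libraries, with adjusted p from 8.4e-12 to 5.27e-06.

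At the next step, from TAP-like to neuroblast-like cells, 25 members were called higher and 10 lower of 44 tested, against 78.2% of all genes, 40% higher and 38.2% lower. The median log2 fold change was 0.58 over the members and 0.03 over all genes tested. Plxna4 rose by 3.36 ± 0.10 (adjusted p = 1.78e-11), Robo2 by 3.16 ± 0.17 (adjusted p = 1.48e-06) and Sema6c by 2.71 ± 0.10 (adjusted p = 4.83e-14), each in 7 of 7 libraries. Epha3 fell by 2.36 (SE 0.12) on the log2 scale. It was thus higher in TAP-like cells than in the stage before and the stage after. Ephb2 was called lower at −0.19 ± 0.08 (adjusted p = 0.0305), but 3 of 7 libraries were higher in neuroblast-like cells.

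Between astrocyte-like and NSC-like cells, 13 members were called higher and 19 lower of 39 tested, against 59.3% of all genes, 29% higher and 30.3% lower. Nrp1 (2.88 ± 0.17), Robo1 (1.90 ± 0.09) and Sema4b (1.39 ± 0.08) were higher in astrocyte-like cells. Efnb1 (−2.40 ± 0.24), Epha3 (−1.87 ± 0.35) and Efnb2 (−1.49 ± 0.12) were lower. All 6 held in 7 of 7 libraries.

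In oligodendrocyte-like against OPC-like cells, 6 members were called higher and 30 lower of 40 tested, where 38.8% of all genes were called higher and 36.9% lower, 75.7% in all. The median log2 fold change was −1.15 over the members and 0.03 over all genes. Sema5b (−4.80 ± 0.21), Sema4a (−3.86 ± 0.12) and Epha5 (−2.75 ± 0.14) fell most among members of at least 20 CPM over the pair of types. Efnb3 (2.88 ± 0.11), Plxnb1 (0.98 ± 0.08) and Ephb1 (0.83 ± 0.07) rose. The fit centres the genes of a pair of types, which the CPM of each type do not. By the ratio of mean CPM the median gene was lower by 0.52 on the log2 scale in oligodendrocyte-like than in OPC-like cells, and without TMM 5 members were called higher and 34 lower. The order of Sema4d and Sema6a between these types thus depends on the scaling, since in the fit they differed by 0.12 ± 0.08 and −0.11 ± 0.08 (adjusted p = 0.172 and 0.24).

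**Figure D2:**
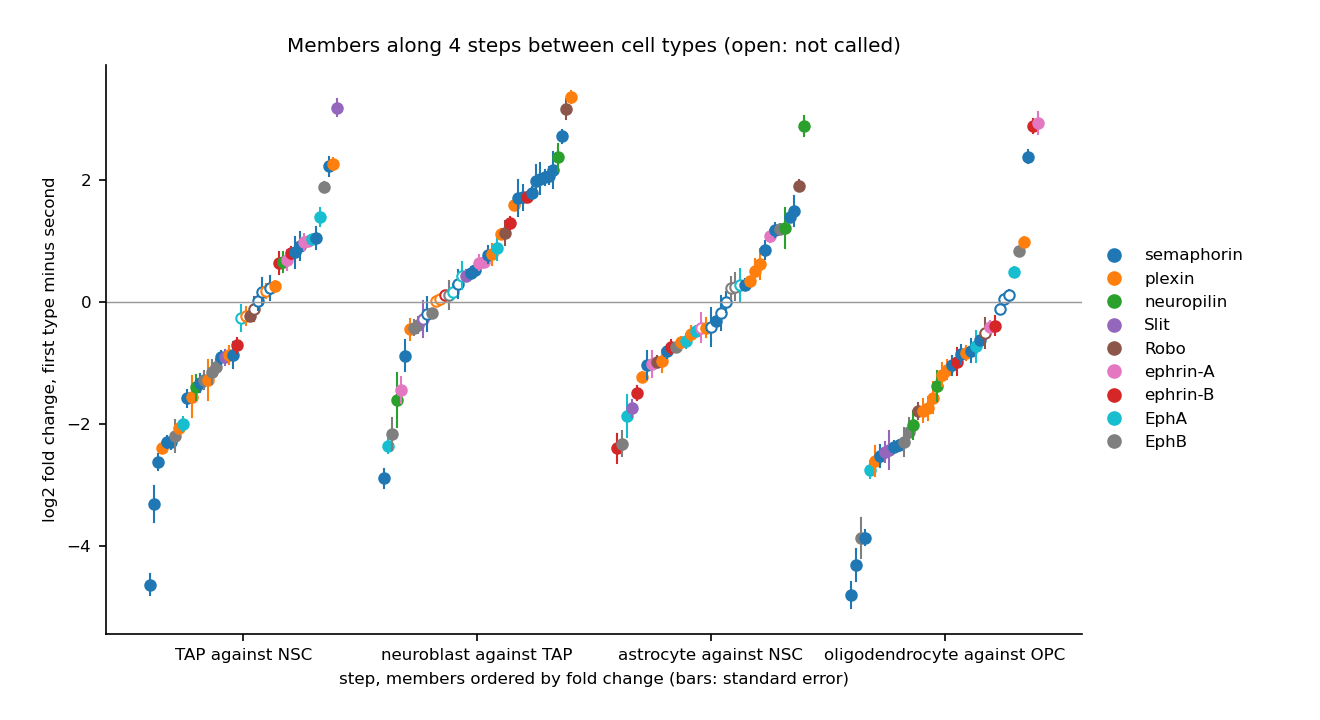
Log2 fold changes of the tested members in 4 steps between cell types (along the horizontal axis), ordered by fold change within each step, with bars of 1 SE and colours by family. Filled points passed an adjusted p of 0.05. Most members lie below 0 from OPC-like to oligodendrocyte-like cells, and most lie above 0 from TAP-like to neuroblast-like cells.

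The comparison of cKO with control libraries asked which guidance genes differed with the loss of Prdm16 in each cell type. In astrocyte-like cells Nrp2 and Epha3 were higher and Efnb2 lower in the cKO libraries. These were 3 of 38 members tested, where 1.34% of all 12074 genes were called (1.1% higher and 0.24% lower), and no member passed in any of the other 10 types. The filter on low counts could admit a gene through a single library. Nrp2 and Epha3 were low in all control libraries and passed it through libraries with Cre, where they were high. Their place among the tested members is thus not independent of the difference. Both were also called without that filter. The control and cKO libraries did not overlap for 11 of the 38 (28.9%), against 15.1% of all genes, and 13 reached an unadjusted p under 0.05, against 10.1% of all genes.

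Nrp2, the co-receptor of class 3 semaphorins, was at 0.805, 0.851 and 1.33 CPM in the astrocyte-like cells of control libraries 1 to 3 and at 11.4, 58.8 and 45.7 CPM in cKO libraries 1 to 3. The groups did not overlap, and the highest cKO libraries stood at the level of endothelial-like cells. The counts behind these values were 2, 2 and 5 UMIs in the controls and 24, 67 and 131 UMIs in the cKO libraries. The log2 fold change was 5.10 ± 0.82 (SE, adjusted p = 0.0498), and the ratio of the mean CPM was 38.8. The DKO library had 20.0 CPM, between cKO libraries 1 and 3.

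The share of astrocyte-like cells with an Nrp2 UMI was 0.49%, 0.885% and 1.05% in the control libraries and 5.12%, 33.0% and 26.9% in the cKO libraries. At an equal depth of 2000 UMIs per cell the expected shares were 0.137%, 0.118% and 0.223% against 2.05%, 9.17% and 7.28%, after 19 control and 5 cKO cells of lower depth were left out. In oligodendrocyte-like cells, the type with the second lowest level of Nrp2 (3.20 CPM), the share at that depth was 0.633% to 1.00% in control and 0.272% to 1.11% in cKO libraries. In TAP-like cells, the type with the lowest level (3.03 CPM), it was 0.0506% to 0.413% in control and 0.303% to 1.7% in cKO libraries. The control astrocyte-like cells thus lay below the oligodendrocyte-like shares and within the TAP-like control range. The cKO astrocyte-like cells lay above the shares of both types in every library. Median depth was 7576 UMIs in astrocyte-like and 17512 UMIs in oligodendrocyte-like cells.

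Epha3, a receptor of ephrin-As, was at 2.42, 2.98 and 3.19 CPM in control libraries 1 to 3 and at 6.17, 17.5 and 30.7 CPM in cKO libraries 1 to 3 of astrocyte-like cells. The groups did not overlap, and cKO library 1 was nearest to the controls. The log2 fold change was 2.67 ± 0.55 (adjusted p = 0.0485), and the DKO library had 13.8 CPM.

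Efnb2, a membrane-bound ligand of EphB receptors and Epha4, was at 18.1, 17 and 17 CPM in the same cells of the control libraries, against 8.06, 8.77 and 4.88 CPM for cKO. All 3 cKO libraries lay below the controls. The log2 fold change was −1.33 ± 0.29 (adjusted p = 0.0284), and the DKO library, at 14.5 CPM, was between the groups. Nrp1, the other neuropilin, did not pass, with 33.8, 24.7 and 37.4 CPM in control and 44.1, 65.8 and 55.8 CPM in cKO libraries (0.76 ± 0.20, adjusted p = 0.0803) and 46.3 CPM in the DKO library, although its groups did not overlap. In an exact two-sided permutation test of the CPM, Nrp2, Epha3 and Efnb2 each reached p = 0.1, the smallest p that 3 against 3 libraries allow.

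**Figure D3:**
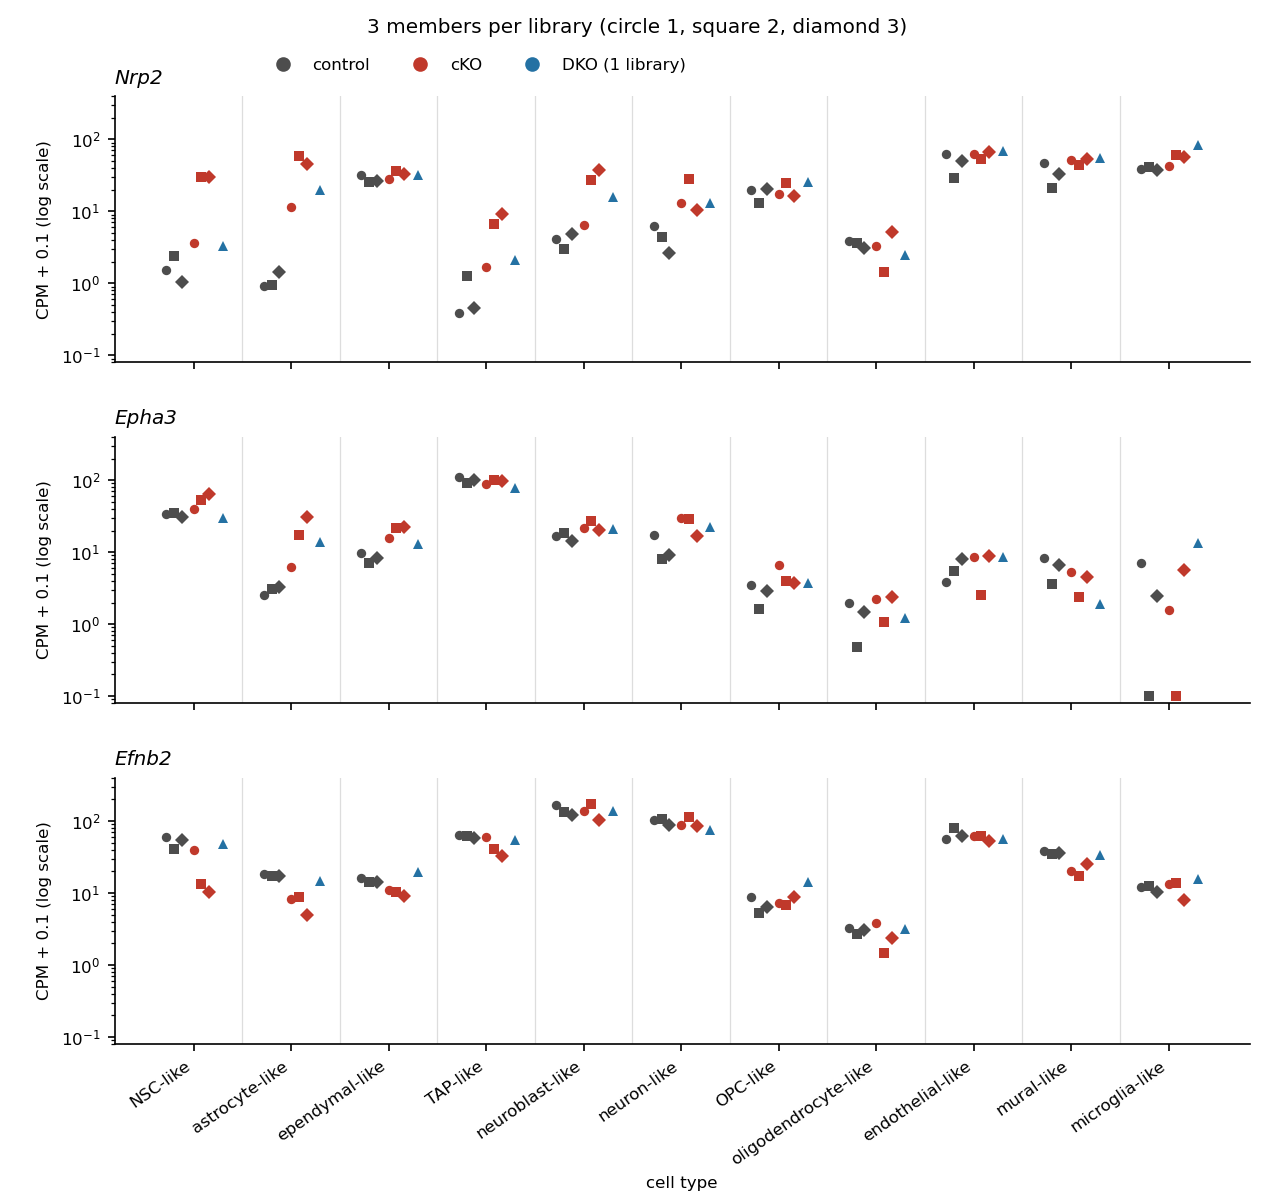
CPM plus 0.1 (log axis) of Nrp2, Epha3 and Efnb2 in each library across 11 cell types. Circles, squares and diamonds stand for libraries 1, 2 and 3 of control or cKO, and triangles for the DKO library. In astrocyte-like cells the cKO libraries lie above the controls for Nrp2 (11.4 to 58.8 against 0.805 to 1.33 CPM) and below them for Efnb2 (4.88 to 8.77 against 17 to 18.1 CPM).

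All 3 calls lay close to the threshold and depended on single libraries. The adjusted p for Nrp2 was 0.284, 0.277 and 0.224 without control library 1, 2 or 3, 0.152 without cKO library 3, 0.0376 without cKO library 2 and 1.77e-10 without cKO library 1. Epha3 had 0.219, 0.282 and 0.211 without 1 control library, 0.175 and 0.103 without cKO library 2 or 3, and 2.36e-06 without cKO library 1. Efnb2 had 0.102, 0.11 and 0.0932 without 1 control library, 0.0665 and 0.281 without cKO library 2 or 3, and 0.0122 without cKO library 1. None changed direction in these fits. Cell Ranger, the counting software, had, by the file headers, version 6.0.1 in libraries 1 and 2 of both control and cKO, and 6.1.1 in library 3 of both and in the DKO. Within version 6.0.1 the mean CPM in control and cKO was 0.828 and 35.1 for Nrp2, 2.70 and 11.9 for Epha3, and 17.6 and 8.42 for Efnb2. The libraries of version 6.1.1, 1 in each group, moved in the same directions.

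Markers of other cells also moved with genotype in the astrocyte-like sums. The 5 endothelial markers summed to 4.83 to 21.8 CPM in control and 27.5 to 48.3 CPM in cKO libraries, with 2 of 5 higher in every cKO library, and none of the 5 was at 0 throughout. In endothelial-like cells they summed to 14100 to 17000 CPM over control and cKO libraries, and the mean of Nrp2 over the 7 libraries was 56.4 CPM. The 6 NSC markers summed to 3030 to 3660 CPM in control and 2580 to 3070 CPM in cKO libraries, with 2 of 6 lower in every cKO library. The neuron markers ranged from 166 to 337 CPM against 237 to 555 CPM, so that the NSC and neuron sums overlapped between groups. Like the endothelial sums, those of 4 further lists did not overlap: the 6 TAP markers, at 24.2 to 34.0 CPM in control and 8.77 to 20.4 CPM in cKO libraries, the 5 fibroblast markers, at 28.7 to 35.3 against 6.62 to 19.4 CPM with 1 of the 5 at 0, the 4 markers of committed oligodendrocytes, at 6.11 to 7.66 against 3.32 to 4.18 CPM, and the 5 T cell markers, at 2.66 to 3.22 against 3.79 to 7.02 CPM with 2 of the 5 at 0. Their part in the 3 results was not tested.

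The promoters of Nrp2, Epha3 and Efnb2 are shown because these were the members called. Each line gives the 5′ to 3′ sequence of 210 bases that ends 41 bases before the RefSeq start on the GRCm38.p6 build, in capitals where the motif GGGCGG, which Sp-family factors can bind, was found on either strand. The stretches were chr1:62703067-62703276 on the plus strand for Nrp2, chr16:63864216-63864425 on the minus strand for Epha3 and chr8:8661283-8661492 on the minus strand for Efnb2.
Nrp2: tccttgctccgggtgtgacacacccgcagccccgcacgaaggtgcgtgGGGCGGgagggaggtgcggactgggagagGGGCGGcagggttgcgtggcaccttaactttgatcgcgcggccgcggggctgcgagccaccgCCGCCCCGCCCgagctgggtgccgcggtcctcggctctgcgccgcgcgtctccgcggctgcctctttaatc
Epha3: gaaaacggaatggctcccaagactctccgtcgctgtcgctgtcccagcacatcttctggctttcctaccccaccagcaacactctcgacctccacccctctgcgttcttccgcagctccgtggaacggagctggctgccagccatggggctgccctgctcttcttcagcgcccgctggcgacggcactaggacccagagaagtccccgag
Efnb2: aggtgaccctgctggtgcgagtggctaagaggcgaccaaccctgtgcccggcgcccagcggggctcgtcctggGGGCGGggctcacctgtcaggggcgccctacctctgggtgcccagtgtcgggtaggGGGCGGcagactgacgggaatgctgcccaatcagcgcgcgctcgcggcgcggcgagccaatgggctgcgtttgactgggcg
The Nrp2 stretch held 4 copies of the motif, of which the last 2 overlap by 1 base, the Efnb2 stretch held 2 and the Epha3 stretch none. Over the full 250 bases before the start, G and C made up 72.4%, 72.0% and 62.8% of the letters in Nrp2, Efnb2 and Epha3. RefSeq promoters matched 52 of the 59 members, 68 promoters in all. Their median GC content was 64.2% against 52.4% over all 32851 promoters, and 48 of the 68 held GGGCGG against 32.7% of all. CCAAT was in 19 of the 68 and TATAAA in 2, against 33.8% and 12.4% of all promoters, on either strand.

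In NSC-like cells no member passed, where 0.173% of all 14456 genes were called by edgeR, but many members had groups that did not overlap. These were 20 of 48 tested (41.7%), 7 with the cKO libraries above and 13 with them below, where 18% of all genes did not overlap, 9.94% above and 8.07% below. An unadjusted p under 0.05 was reached by 17 members, 8 higher and 9 lower, where 13.7% of all genes reached it. DESeq2 called Nrp2 and Sema6d higher and Plxna4 lower. For DESeq2 the share of all genes called is not given, here or in the types below, so its calls have no background. The median log2 fold change was −0.28 over the members and 0 over all genes tested.

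None of the 3 ephrin-Bs passed in NSC-like cells. Efnb3 had the smallest p, with 29, 29.5 and 27.4 CPM in control libraries 1 to 3 against 18.9, 14.4 and 17.3 CPM in cKO libraries 1 to 3, a log2 fold change of −0.74 ± 0.16 (adjusted p = 0.0757). Efnb2 had 60.7, 41.3 and 54.9 CPM against 39.8, 13.3 and 10.3 CPM (−1.28, adjusted p = 0.354). For both, every cKO library lay below every control, but for Efnb2 the gap between cKO library 1 and control library 2 was small. Efnb1 overlapped between groups, with 52.2, 46.5 and 52.5 CPM in control and 49.2, 17.3 and 14.7 CPM in cKO libraries (−0.88, adjusted p = 0.464).

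Ephb1, a receptor of ephrin-Bs, had 94.0, 98.8 and 90.9 CPM in control against 80.9, 54.1 and 57.4 CPM in cKO libraries (−0.55, adjusted p = 0.166). Sema6a had 115, 104 and 112 CPM against 104, 70.7 and 53.2 CPM (−0.54, adjusted p = 0.294). Both were low in cKO libraries 2 and 3 and close to control in cKO library 1. Epha3 had 33.7, 34.7 and 30.4 CPM in control against 39.2, 52.3 and 64.7 CPM in cKO libraries (0.67, adjusted p = 0.134). Sema6d had 81.1, 70.6 and 80.0 CPM against 90.4, 146 and 157 CPM (0.76, adjusted p = 0.108). Both were highest in cKO libraries 2 and 3.

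The neuropilins had the same order of libraries, although their mean was under 20 CPM in NSC-like cells, and they are named here after their values were seen. Nrp2 was at 1.44, 2.28 and 0.943 CPM for control and at 3.52, 29.9 and 29.8 CPM in cKO libraries (3.83 ± 0.90, adjusted p = 0.143), and Nrp1 at 6.43, 2.28 and 3.58 against 6.86, 10.5 and 13.8 CPM. Slit2, also named after its values were seen, overlapped between groups, since cKO library 1 had 38.2 CPM like the controls (39.5, 43.2 and 32.4 CPM) and cKO libraries 2 and 3 had 5.05 and 4.56 CPM.

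**Figure D4:**
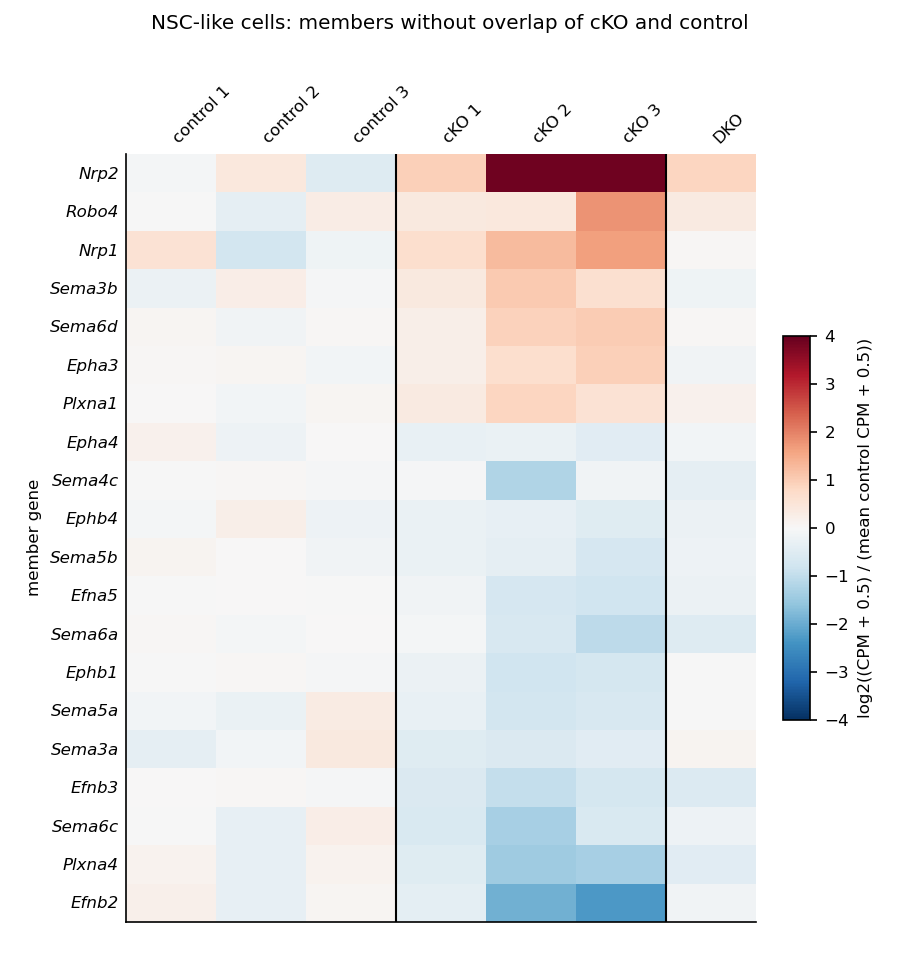
Heatmap of the 20 members whose control and cKO libraries did not overlap in NSC-like cells, in 7 libraries, as log2 of CPM plus 0.5 over the control mean plus 0.5. Nrp2 has the strongest colour in cKO libraries 2 and 3 (29.9 and 29.8 CPM against 0.943 to 2.28 CPM in control), and cKO library 1 is paler than those libraries for most members.

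Of the 20 members, cKO library 1 was the cKO library nearest to the controls in 18. The share over all genes is not given, so this count has no background. Of the barcodes of cKO library 1, 74.7% were kept, against 49.8% and 47.2% in cKO libraries 2 and 3. It shared 61 and 70 barcodes with control libraries 1 and 2. For cKO library 2 these were 8 and 7, and for cKO library 3 they were 13 and 13. With control library 3, cKO libraries 1 to 3 shared 22, 2 and 29 barcodes. The part of these differences was not tested. For members where cKO library 1 lay nearest to the controls, leaving it out widens the group difference, so the added calls are not separate evidence. Leaving out any other control or cKO library gave 0 or 1 higher and 0 lower calls. Of all gene values, 1.31% were called higher and 0.836% lower without cKO library 1. In those fits edgeR called 24 higher and 17 lower member values over the 11 types, against 2 and 1 with all libraries. In NSC-like cells these were Epha3, Epha5, Nrp1, Nrp2, Plxnb2, Plxnb3, Plxnd1 and Sema6d higher, and Efnb1, Efnb2, Efnb3, Ephb1, Ephb3, Plxna4, Sema4a, Sema6a and Slit2 lower, against 6.97% higher and 4.35% lower among all genes. In the DKO library, 9 of the 20 members lay within the control range, 3 within the cKO range and 8 in neither, again without a share over all genes. Markers moved here as well. Of the 7 astrocyte markers, 3 were higher in every cKO library, although their sums overlapped, at 3130 to 4290 CPM in control and 3730 to 3940 CPM in cKO libraries. The 6 TAP markers summed to 46.1 to 64.3 CPM against 18.4 to 46.7 CPM (3 of 6 lower in every cKO library), the 6 neuroblast markers to 197 to 337 CPM against 92.0 to 204 CPM (2 lower), and the 5 endothelial markers to 17.2 to 27.5 CPM against 25.4 to 50.7 CPM (2 higher). The sums of the 5 fibroblast markers did not overlap, at 29 to 35.5 CPM against 13.7 to 24.9 CPM (2 lower). Their part in these values was not tested.

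The other types of the radial glial lineage had no called member by edgeR either. In ependymal-like cells, where 0.144% of genes were called, 10 of 45 members had an unadjusted p under 0.05, against 8.51% of all genes, and 10 did not overlap, 22.2% against 14.5%. Epha3 had 9.80, 7.04 and 8.19 CPM in control and 15.8, 21.4 and 22.2 CPM in cKO libraries, a log2 fold change of 1.19 with an adjusted p of 0.0883. It was thus above the controls in all 3 cKO libraries of ependymal-like, astrocyte-like and NSC-like cells. In the ependymal-like sums the 7 mural markers were at 367 to 628 CPM in control and 704 to 944 CPM in cKO libraries, the 6 oligodendrocyte markers at 412 to 630 against 191 to 349 CPM, the 6 neuroblast markers at 791 to 947 against 623 to 755 CPM, and the 5 fibroblast markers at 41.2 to 45.3 against 16.7 to 31.1 CPM. Their part in the ependymal-like values was not tested.

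In TAP-like cells, where 0% of genes were called, 10 of 46 members had an unadjusted p under 0.05, against 6.55% of all genes, and 8 did not overlap, 17.4% against 11.7%. Efnb1 had 70.5, 85.5 and 75.0 CPM in control and 57.9, 37.2 and 35.5 CPM in cKO libraries (−0.80, adjusted p = 0.454). The same gene had 83.6, 90.0 and 75.9 CPM against 68.2, 50.8 and 45.1 CPM in neuroblast-like cells (−0.60, adjusted p = 0.403). In both types every cKO library lay below every control, with cKO library 1 the nearest. DESeq2 called Efnb1 lower and Nrp2 and Robo1 higher in TAP-like cells. The 6 NSC markers summed to 397 to 448 CPM in the TAP-like cells of control libraries and 570 to 1070 CPM for cKO (2 of 6 higher and 1 lower in every cKO library), and the 5 endothelial markers to 21.4 to 32.8 against 10.7 to 16.7 CPM (3 of 5 lower). None of these markers was at 0 throughout, and their part in the TAP-like values was not tested.

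In neuroblast-like cells, where 0.0292% of genes were called, 11 of 49 members had an unadjusted p under 0.05, against 8.67% of all genes, and 9 did not overlap, 18.4% against 13.4%. Epha4, a receptor of ephrins of both classes, had 213, 209 and 213 CPM in control and 173, 96.4 and 77.5 CPM in cKO libraries (−0.87, adjusted p = 0.45). Plxnc1 had 18.0, 13.5 and 12.7 CPM against 22.0, 41.1 and 32.2 CPM (1.09, adjusted p = 0.246). For all 9 of these members the DKO library lay within the range of the cKO libraries, with 136 CPM for Epha4 and 25.1 CPM for Plxnc1. That range reached towards the controls, since cKO library 1 was the nearest to them in 7 of the 9. The DKO library was within the cKO range for 7 of 8 such members in TAP-like, 6 of 11 in astrocyte-like and 4 of 10 in ependymal-like cells. The share over all genes is not given, so these counts have no background. DESeq2 called Epha6, Nrp2 and Plxnc1 higher in neuroblast-like cells. The 6 TAP markers in the neuroblast-like sums were at 68.0 to 81.1 CPM in control and 30.9 to 67.1 CPM in cKO libraries, and their part was not tested.

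In neuron-like cells, where 0.0908% of genes were called, 3 of 49 members had an unadjusted p under 0.05, against 3.19% of all genes, and 5 did not overlap, 10.2% against 7.99%. Nrp2 had the smallest p, with 6.11, 4.32 and 2.5 CPM in control and 13.0, 28.3 and 10.2 CPM in cKO libraries (2.10, adjusted p = 0.221), and passed without control library 1, without cKO library 3, by DESeq2, without the filter on low counts and with the Cell Ranger version as a block. The neuron-like cells pooled 2 clusters, of which the smaller held 63, 15 and 74 cells of control libraries 1 to 3 beside 119, 176 and 719 in the larger, and 57, 35 and 130 cells of cKO libraries 1 to 3 beside 119, 89 and 645. The 7 neuron markers themselves summed to 14300 to 16900 CPM in control and 10700 to 13700 CPM in cKO libraries, and their part was not tested.

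In the 5 remaining types, unadjusted p values under 0.05 were found for 3 of 42 members in OPC-like, 3 of 49 in oligodendrocyte-like, 1 of 33 in endothelial-like, 5 of 32 in mural-like and 0 of 22 in microglia-like cells, against 4.89%, 1.83%, 2.01%, 3.61% and 3.07% of all genes. No member was called by edgeR or DESeq2 in them. Of all genes, 0.00889% were called in mural-like cells and 0% in the other 4. Members without overlap made up 14.3% in OPC-like, 8.16% in oligodendrocyte-like, 12.1% in endothelial-like, 6.25% in mural-like and 13.6% in microglia-like cells, against 11.3%, 6.51%, 7.36%, 9.43% and 9.36% of all genes. The member with the smallest p was Ephb3 in OPC-like cells (−0.75, adjusted p = 0.928), and Sema5a in oligodendrocyte-like cells, with 62.0, 37.9 and 51.8 CPM against 72.1, 80.2 and 93.9 CPM (0.70, adjusted p = 1.0). It was Plxna4 in endothelial-like cells (−0.63, adjusted p = 1.0), Sema4g in microglia-like cells (−0.65, adjusted p = 1.0), and Efnb2 in mural-like cells, with 38.1, 34.7 and 36.4 CPM against 20.4, 17.1 and 25.6 CPM (−0.74, adjusted p = 1.0). In the mural-like sums, the 6 neuroblast markers were at 225 to 332 CPM in control and 49.1 to 141 CPM in cKO libraries, with 4 of 6 lower in every cKO library, and the 5 endothelial markers at 4680 to 5000 against 5330 to 6880 CPM, with 2 of 5 higher. Their part in the value of Efnb2 was not tested. In the OPC-like sums the 7 neuron markers were at 442 to 455 against 174 to 416 CPM and the 5 fibroblast markers at 2.29 to 5.65 against 1.01 to 1.95 CPM, and in the microglia-like sums the 4 choroid plexus markers were at 4.33 to 8.27 against 0 to 2.25 CPM, whose part was not tested either.

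**Figure D5:**
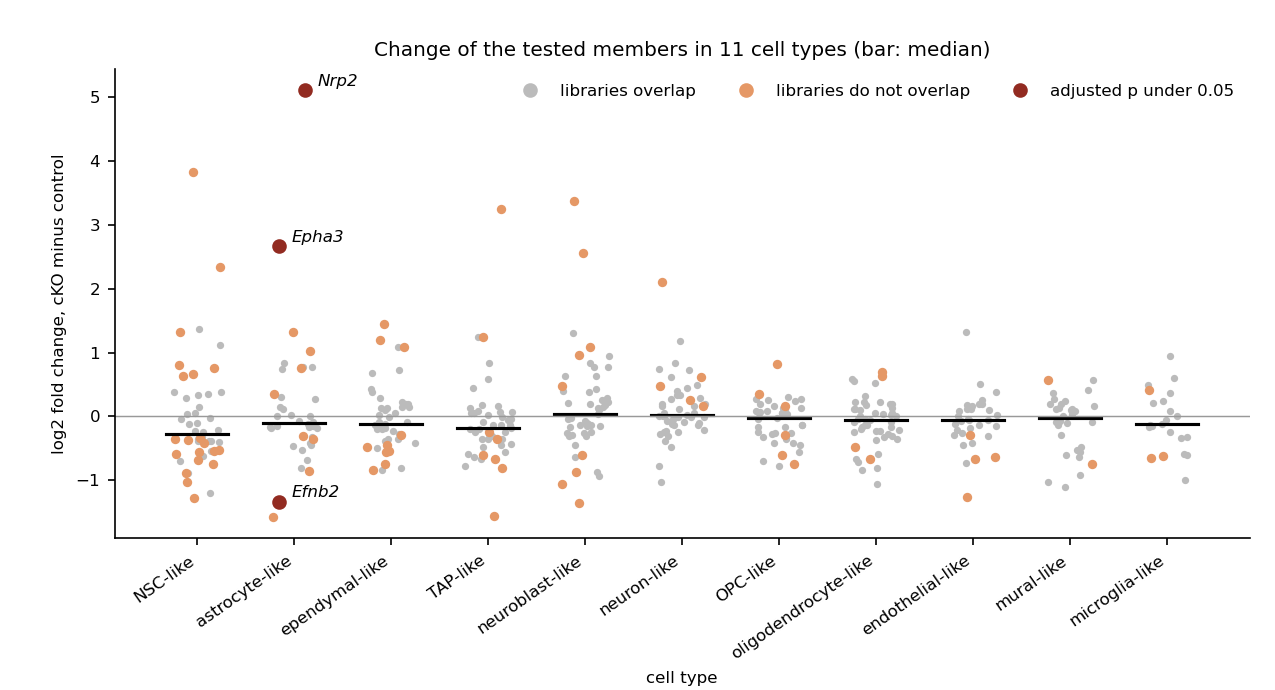
Log2 fold change, cKO over control, of the members tested in each of 11 cell types. Dark red points passed an adjusted p of 0.05, orange points did not pass but had groups without overlap, and grey points overlapped, with a bar at the median of the members. The 3 dark red points, Nrp2 at 5.10, Epha3 at 2.67 and Efnb2 at −1.33, are in astrocyte-like cells.

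Whether the 3 calls were particular to astrocyte-like cells was tested on the difference between each library's level in these cells and in every other type, with limma. The lowest adjusted p over the 10 other types was 0.13 for Nrp2, 0.313 for Epha3 and 0.17 for Efnb2, so that no difference between types passed after adjustment over all genes. The lowest unadjusted p was 8.57e-05 for Nrp2, 0.00381 for Epha3 and 0.000284 for Efnb2. For Nrp2 the log2 fold changes were 3.83 in NSC-like, 3.24 in TAP-like, 2.56 in neuroblast-like and 2.10 in neuron-like cells, and 0.20 in ependymal-like, 0.38 in endothelial-like, 0.57 in mural-like, 0.42 in microglia-like, 0.04 in OPC-like and −0.04 in oligodendrocyte-like cells.

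The other genes of the guidance pathways were read from a list of 58 further receptors, netrins, adaptors and effectors. This list was chosen with earlier results of these data known, so its share of calls is not independent of them. In astrocyte-like cells 3 of 45 tested were called, where 1.34% of all genes were, and edgeR called none in the other 10 types. Whether the types differed in this was not tested for these genes. Dcc, a netrin receptor, had 5.64, 2.98 and 3.45 CPM in control and 12.3, 11.4 and 22.7 CPM in cKO libraries (2.00 ± 0.37, adjusted p = 0.00815). Chn1, which acts downstream of Epha4, had 22.6, 23.4 and 31.6 CPM against 45.1, 92.1 and 87.9 CPM (1.51 ± 0.26, adjusted p = 0.0104). Vav3, a signalling protein that acts downstream of Eph receptors, had 21.3, 14.5 and 14.9 CPM against 29.9, 51.8 and 41.8 CPM (1.26 ± 0.23, adjusted p = 0.00799). All 3 were higher in every cKO library than in every control, and the DKO library had 7.23, 39.7 and 41.1 CPM.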

How the data were processed

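The authors deposited raw counts, per the file headers: Cell Ranger assigned 10x Genomics 3′ reads to genes, counted each UMI once and kept barcodes called as cells, without normalization. Versions 6.0.1 and 6.1.1 stand in the headers and 6.1.1 in the submitters' processing notes. The 7 libraries held 45758003 to 141353017 UMIs. Cells with 500 to 7000 genes and at most 10% mitochondrial counts were kept, and no cell was removed as a doublet in the values given.

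Cells were integrated and clustered in Seurat 5.3.0 (R 4.3.3, 2000 variable features, 30 principal components, resolution 0.15) without the 59 members. Naming a cluster took 3 or more markers of 1 type, each detected in 10% of the cells or more and with a log2 fold of 1 or more over the other cells. A cluster led by hemoglobin genes (3283 cells, median 1207 UMIs) was not compared, nor were those with no clear type (2150 and 1760 cells). The first also carried NSC and astrocyte markers and held 936 cells of cKO library 3, which had 679 NSC-like cells. At resolution 0.3 a cluster of 3033 cells with the same median depth was named NSC. Scrublet (scanpy 1.11.5, expected rate 0.08) scored doublets. Its threshold in control library 1 was set to the median of the others.

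Counts were summed per library and type with at least 10 cells, giving 1092910 to 4028097 UMIs for astrocyte-like and 2821186 to 10863533 for NSC-like cells. edgeR 4.0.16 (filterByExpr, TMM, robust quasi-likelihood test, Benjamini-Hochberg adjustment over all genes of a type, threshold 0.05) fitted all 7 libraries in 3 groups, and the lineage steps with the library as a block. Libraries are pools of different mice, so p-values measure the spread between pools. limma 3.58.1 tested differences of effects between types, and scipy 1.17.1 gave exact permutation tests. In counts simulated from the NSC-like sums (14456 genes), the test found 156 of 200 genes given a log2 fold of 1. It made 18 false calls, and called 2 genes when none was changed. The changed genes were drawn only from those at higher levels, and the change was also set in the DKO library. The recovery thus does not cover members with few counts.

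Members, markers and the list of 58 other guidance genes were chosen with earlier results of these data known. Named by rule were members of at least 20 CPM in 1 type for levels; for genotype, members called, the member with the smallest p in each type, and in the radial glial lineage members of at least 20 CPM whose groups did not overlap and whose log2 fold change was at least 0.5 in size; and for each lineage step, the 3 largest increases and decreases of called members of at least 20 CPM. Libraries with the same number share no stated origin. Their deviations from the group means correlated above 0.1 in every pair in oligodendrocyte-like (0.164 to 0.459), endothelial-like (0.129 to 0.38) and mural-like cells (0.144 to 0.392), but not in the other 8 types. Alternatives were DESeq2 1.42.0, no TMM, no filter, a mitochondrial limit of 5%, no doublets, resolution 0.3, no integration, a gate on at least 3 markers per cell, equal cells per library, the replicate number as a block, no DKO library and each library left out. The Cell Ranger version as a block was added after the data were seen. Promoter sequences came from RefSeq (GRCm38.p6), and 7 members had no entry.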

Additional observations from a re-analysis of the deposited data

How the results depend on the processing

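Over the 11 types, 2 member values were called higher and 1 lower. DESeq2 called 10 higher and 2 lower, no filter on low counts gave 17 and 7, no TMM 1 and 2, no integration 0 and 0, and no DKO library 1 higher. A mitochondrial limit of 5% and the marker gate each left 0 lower. Leaving out 1 library gave 0 to 24 higher and 0 to 17 lower, the highest without cKO replicate 1. With the replicate number as a block, 10 were higher and 5 lower. None of these lay in the oligodendrocyte-, endothelial- or mural-like cells, where every pair of libraries correlated by number, so that the block changed no call there. The pairs of libraries 1 and of libraries 3 also correlated in the other types. The block added calls in NSC-, TAP-, neuroblast-, astrocyte- and ependymal-like cells. Except without cKO replicate 1, the share of all genes called is not given for these alternatives, so their counts have no background. In the lineage steps, the marker gate gave 10 higher in TAP-like against NSC-like cells (16 by clusters) and 12 higher in oligodendrocyte-like against OPC-like cells, where resolution 0.3 gave 11 (6 at 0.15). The other 127 counts and levels kept within 1.5 times or 1 SD, and no value reversed. Without integration no NSC-like cluster formed, so its values could not be had. The astrocyte-like clusters formed then (5884 and 4587 cells) also carried NSC markers. The first held 1506, 677 and 1770 cells of control libraries 1 to 3, 1032 of cKO library 1 and 865 of the DKO library. It held only 17 each of cKO libraries 2 and 3. The second held 435, 217 and 493 cells of control libraries 1 to 3, 381, 451 and 1823 of cKO libraries 1 to 3 and 787 of the DKO library. Its median depth was 2123 UMIs, against 6691 in the first.

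In astrocyte-like cells, the log2 fold change of Nrp2 ranged from 3.54 to 6.47, of Epha3 from 0.79 (no integration, adjusted p = 0.117) to 5.09 (equal cells) and of Efnb2 from −1.86 to −1.05. Nrp2 was called in 11, Epha3 in 11 and Efnb2 in 9 of 18 alternatives. Nrp2 had an adjusted p of 0.0534 without TMM, 0.123 with a block for the Cell Ranger version, and 1.4e-12 by DESeq2. Efnb2 had 0.0775 by DESeq2. The cause of these differences was not tested. Depth limits the low members: 2 to 5 UMIs of Nrp2 stood behind each control value. With 88 astrocyte-like and 47 microglia-like cells, cKO library 2 was the smallest.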

Other observations

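A cluster of 2150 cells that no marker list named, led by the replication genes Ung, Cdc6, Mcm2 and Uhrf1 with Gsx1 and Dll3, also carried guidance genes. Ephb2 had 51.0 ± 9.51 CPM there (SD, n = 7), with 38.5 to 67.7 CPM over libraries, and the highest mean in a named type was 34.8 CPM in TAP-like cells. Slit1 had 35.8 ± 9.47 CPM, and its highest mean in a named type was 30.3 CPM in neuroblast-like cells. Epha3 had 66.9 ± 12.8 CPM, below its 95.5 CPM in TAP-like cells. Efnb1 in this cluster had 68.6, 65.6 and 59.9 CPM in control libraries 1 to 3, 64.3, 34.2 and 16.1 CPM in cKO libraries 1 to 3 and 44.1 CPM in the DKO library, so that the groups overlapped at cKO library 1.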
